A study of Mus musculus with 4 samples.

Results

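The complement genes of mouse liver tumours were followed in 4 bulk RNA sequencing libraries, 2 from mice fed the gut bacterium Akkermansia muciniphila (AKK 1, AKK 2) and 2 from mice fed phosphate-buffered saline (PBS 1, PBS 2). The 31 genes were listed by name, from the recognition proteins that start the cascade to its receptors, and each matched 1 of the 48526 gene identifiers in the count tables. Of the 31, 28 passed the filter on low counts that kept 17479 genes in all, and Mbl1, C8b and Cfd did not. All mice were C57BL/6, ate an MCD diet, deficient in methionine and choline, for 2 weeks and were then implanted in the liver with cells of the mouse hepatoma line RIL-175, which carried luciferase. AKK mice were fed 5000000000 colony-forming units (CFU), beginning 2 weeks ahead of the diet, with a pause of 6 days after surgery. PBS mice were given the vehicle. The sources used here give neither age nor sex, and do not say that each replicate came from its own mouse. The p-values therefore measure only the spread between these samples. The names of the deposited tables follow a different pattern in each group, and if these mark cohorts, they cannot be told apart from the feeding.

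Complement is a chain of plasma proteins that tags microbes and damaged cells and can pierce their membranes. The classical route starts with C1q bound to antibody and the lectin route with mannose-binding lectins bound to sugars, the alternative route amplifies through factor B, factor D and properdin, and all of them meet at C3. Hepatocytes secrete most of the plasma proteins, macrophages are a main source of C1q, and membrane regulators stop the cascade on host cells.

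The libraries held 48912489 to 59027227 reads on genes. Levels are in CPM, reads relative to the TMM-scaled library total. An observed 0 allows up to 3 reads, or 0.0514 to 0.0631 CPM (counting error only). The epithelial keratin genes Krt8 and Krt18 read 1443 to 2632 and 807 to 1677 CPM over the 4 libraries. Of 19 hepatocyte markers measured, 17 had both AKK libraries above both PBS ones, against 26.7% of all genes tested. Of the 19, 10 passed the filter through their AKK reads alone and so had to lie higher in AKK. The markers' values stand beside the liver-made members. In such bulk samples, fewer cells of a type and less RNA per cell cannot be told apart.

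Most complement genes made chiefly by the liver were at or near 0 reads in the PBS tumours and had reads in both AKK tumours. The 3 C1q chains and the receptor genes C3ar1 and Cd93 lay lower in both AKK tumours than in both PBS tumours. With 2 libraries a group, edgeR's quasi-likelihood test called 0 of the 28 members at an adjusted p under 0.05, against 0.00572% of all genes called higher and 0.0% called lower. Of the 28, 19 had a log2 fold change above 0, as did 51.8% of all genes. At an unadjusted p under 0.05, 12 members were higher and 3 lower, where 6.7% and 8.62% of all genes were. DESeq2 called 11 of the 31 members higher and 1 lower, against 2.03% and 2.78% of the 18870 genes to which it gave an adjusted p. In edgeR, 7 members were called higher without PBS 1, against 0.8% of all genes, and 4 without PBS 2, against 0.527%. Without AKK 1 or without AKK 2, 0 members and 0 genes in all were called.

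Of the 28 members kept, 14 had both AKK libraries above both PBS libraries, against 26.7% of all genes, and 5 had both below, against 24.7%. Of these 28, 6 were kept through their AKK reads alone, as were 2.28% of all genes kept. Those 6 had to lie higher in AKK, so the counts of higher members are a description. An exact permutation test of a single gene cannot go below p = 0.333 (two-sided) with 2 libraries against 2.

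**Figure D1:**
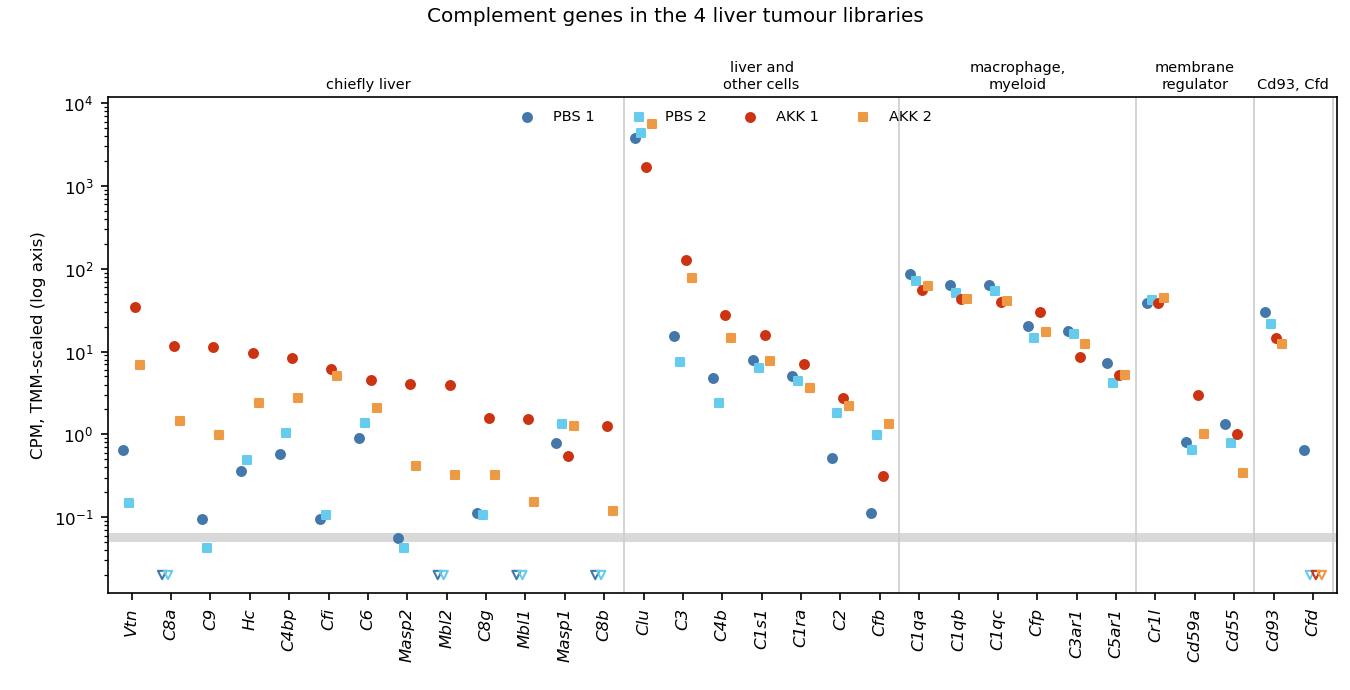
Level of each of the 31 complement genes in CPM (log axis) in PBS 1, PBS 2, AKK 1 and AKK 2, grouped by main source. Open triangles mark 0 reads, and the grey band is the value of 3 reads (0.0514 to 0.0631 CPM). In the chiefly liver group, 12 of 13 genes have both AKK points above both PBS points, Masp1 being the exception. The share over all genes tested is 26.7%.

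The largest log2 fold changes were among the 13 members made chiefly by the liver, of which 11 were kept. The median of their log2 fold changes (AKK minus PBS) was 5.43, or 5.16 with members at 0 in PBS set to the 3-read floor, against 0.02 over all genes tested. Of the 11, 6 were kept through their AKK reads alone and so had to lie higher in AKK. The median was 3.84 over the 7 members with at least 1 CPM in 2 libraries, 4.004 with reads counted without regard to strand (10 members) and 3.001 without AKK 1. The 7 members made by the liver and by other cells had a median of 0.71 (2.09 without PBS 2), the 6 macrophage and myeloid members one of -0.41 and the 3 membrane regulators one of 0.05.

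**Figure D2:**
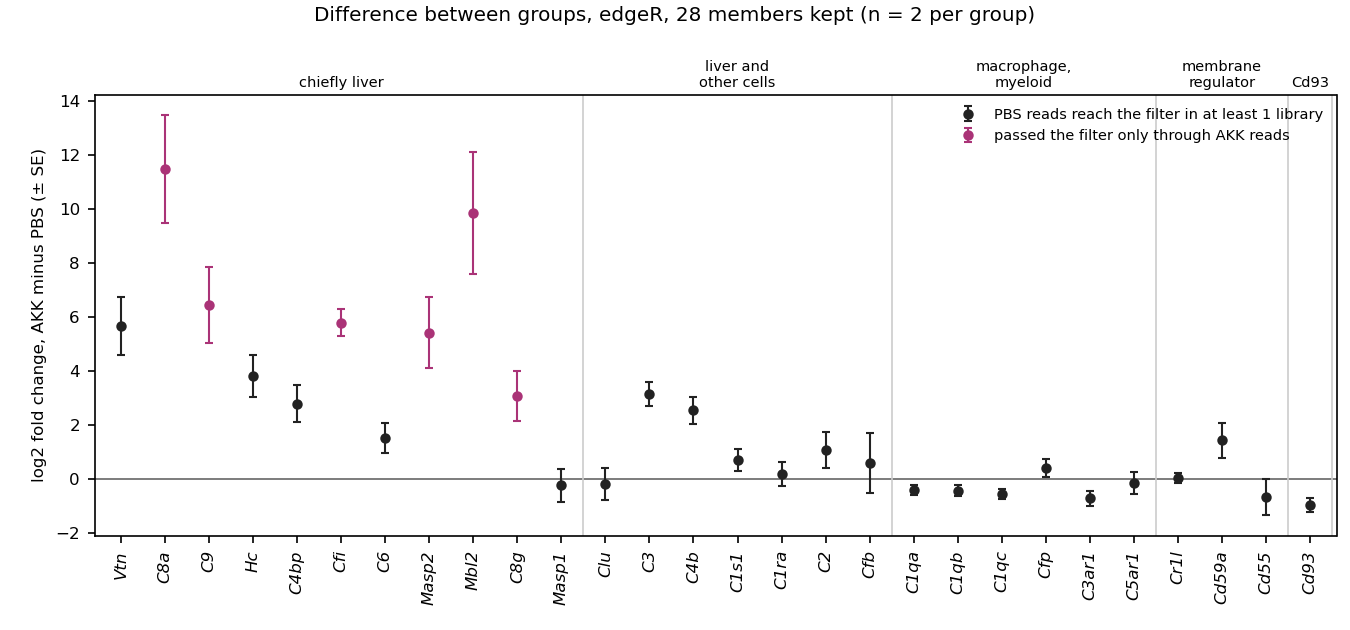
Log2 fold change (AKK minus PBS) of the 28 members kept, with edgeR's standard error, grouped by main source, 2 libraries a group. Purple points passed the filter only through AKK reads (C8a, C8g, C9, Cfi, Masp2 and Mbl2). The values run from -0.94 (Cd93) to 11.48 (C8a).

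Promoter sequences are shown for the 5 chiefly liver members whose 250 bases before the start site hold the core of the binding motif of HNF1, a hepatocyte transcription factor, and for C3, the protein on which all routes meet. They are RefSeq sequences of build GRCm38.p6, written 5′ to 3′ along the gene's strand. Capitals mark the HNF1 core GTTAAT on either strand, in Vtn also the HNF4 motif CAAAGTC, and in C3 the motif TTGCNNAA of C/EBP, a family of acute-phase factors. An NF-kB motif (GGGA, any 4 bases, CC) and the STAT motif TTCNNNGAA were also searched on both strands and are not in capitals.
C8a, chr4:104876399-104876648, minus strand: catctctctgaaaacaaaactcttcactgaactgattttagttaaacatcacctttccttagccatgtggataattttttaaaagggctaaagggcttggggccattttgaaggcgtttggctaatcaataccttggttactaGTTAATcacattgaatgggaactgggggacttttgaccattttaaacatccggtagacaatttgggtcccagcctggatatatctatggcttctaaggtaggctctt
C8b, chr4:104766067-104766316, plus strand: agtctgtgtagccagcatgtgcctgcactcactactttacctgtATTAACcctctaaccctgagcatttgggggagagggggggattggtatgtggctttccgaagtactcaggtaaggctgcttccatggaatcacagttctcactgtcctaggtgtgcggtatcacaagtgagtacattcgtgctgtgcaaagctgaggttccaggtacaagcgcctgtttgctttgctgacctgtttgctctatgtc
C4bp, chr1:130661619-130661868, minus strand: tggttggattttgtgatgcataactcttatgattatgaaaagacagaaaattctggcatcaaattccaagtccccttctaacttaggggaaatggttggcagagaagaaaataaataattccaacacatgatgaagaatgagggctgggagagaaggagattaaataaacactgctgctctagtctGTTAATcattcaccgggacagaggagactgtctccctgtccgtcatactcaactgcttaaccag
Hc, chr2:35061413-35061662, minus strand: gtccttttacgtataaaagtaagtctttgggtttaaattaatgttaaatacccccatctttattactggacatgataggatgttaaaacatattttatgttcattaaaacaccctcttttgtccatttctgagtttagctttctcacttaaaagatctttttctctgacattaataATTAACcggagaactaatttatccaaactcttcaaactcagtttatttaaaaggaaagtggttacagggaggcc
Vtn, chr11:78498870-78499119, plus strand: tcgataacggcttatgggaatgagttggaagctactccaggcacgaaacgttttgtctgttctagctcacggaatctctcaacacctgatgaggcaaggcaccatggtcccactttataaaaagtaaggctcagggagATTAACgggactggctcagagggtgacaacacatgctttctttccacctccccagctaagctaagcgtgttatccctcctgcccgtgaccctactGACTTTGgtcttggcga
C3, chr17:57228137-57228386, minus strand: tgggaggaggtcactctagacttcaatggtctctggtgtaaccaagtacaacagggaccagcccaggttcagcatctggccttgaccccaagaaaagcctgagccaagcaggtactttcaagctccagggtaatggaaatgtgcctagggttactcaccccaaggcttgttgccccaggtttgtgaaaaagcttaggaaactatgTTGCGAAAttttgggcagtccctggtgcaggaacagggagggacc

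A promoter was given for 23 of the 31 members (25 promoters). The HNF1 core was in 5 of the 12 promoters of chiefly liver members (41.7%) and in 7 of all 25 (28%), the others being those of C1ra and of the myeloid gene Cfp, against 6.43% of 32851 promoters of all genes. The HNF4 motif was in 1 of the 25 (4%), that of Vtn, against 3.84%. NF-kB matches were in 5 of the 25 (20%) and 0 of the 12, against 17.6% of all, C/EBP matches in 3 (12%), against 9.56%, and STAT matches in 2 (8%), against 7.02%. Matches describe the letters of these windows and show no binding.

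In the classical route, C1qa, C1qb and C1qc encode the 3 chains of C1q. In the order PBS 1, PBS 2, AKK 1, AKK 2, C1qa read 85.9, 70.2, 55.5 and 62.4 CPM. C1qb read 63.8, 50.9, 42.6 and 43.3 CPM in the same order, and C1qc 62.9, 54.0, 40.1 and 41.0 CPM. Every AKK value was below every PBS value for each chain, and neither test called the difference. C1qc had the largest log2 fold change of the chains, -0.53 ± 0.18 (SE, n = 2 a group, edgeR adjusted p = 0.286), followed by C1qb (-0.42 ± 0.20) and C1qa (-0.40 ± 0.19).

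As a sum, the 12 macrophage markers lay lower with the C1q chains. Of the 12, 6 were below both PBS libraries in both AKK libraries, against 24.7% of all genes tested. Aif1 alone was above, against 26.7% of all genes, and 5 overlapped. The 12 summed to 366 and 272 CPM in PBS 1 and PBS 2 and 202 and 218 CPM in AKK 1 and AKK 2, with none at 0. Adgre1 read 10.2, 6.06, 2.53 and 4.69 CPM, and Csf1r 61.5, 35.0, 23.5 and 28.1 CPM. Cd68 overlapped between the groups, at 18.1, 17.0, 19.0 and 16.6 CPM. The summed C1q chains, at 213, 175, 138 and 147 CPM, were 0.580 and 0.642 of the summed markers in PBS and 0.685 and 0.673 in AKK. Relative to Mpeg1 they were also higher in AKK (2.65 and 2.24, then 4.03 and 3.23), while relative to Cd68 they were lower (11.8 and 10.3, then 7.28 and 8.81). The direction of C1q per macrophage marker thus turned with the marker. Mpeg1 was named after its values were seen. The markers' part in the C1q difference was not tested.

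C1ra and C1s1 encode the proteases carried by C1q. C1ra read 5.06, 4.39, 7.17 and 3.66 CPM in PBS 1, PBS 2, AKK 1 and AKK 2, and C1s1 7.91, 6.41, 15.8 and 7.60 CPM. Both genes overlapped between the groups, with AKK 1 the highest library. Their log2 fold changes were 0.20 ± 0.44 and 0.71 ± 0.42 (edgeR adjusted p = 0.847 and 0.446). Each has a near-identical neighbour, C1rb or C1s2, so their counts are uncertain.

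C4b, cleaved by the classical and lectin proteases, read 4.84 and 2.38 CPM in PBS and 27.5 and 14.7 CPM in AKK, 5.86 times higher on the group means. The groups did not overlap, and the log2 fold change of 2.55 ± 0.49 had an adjusted p of 0.182 in edgeR and 1.95e-05 in DESeq2. Reads shared with its paralog C4a could be lost or split. C2, the partner of C4b in the C3-cleaving enzyme, read 0.525 and 1.83 CPM in PBS and 2.72 and 2.21 CPM in AKK (log2 fold change 1.07 ± 0.67, edgeR adjusted p = 0.469). The opposite strand at C2 held 180 and 254 PBS reads and 201 and 244 AKK reads, more than its own strand in every library. Counted without regard to strand, the log2 fold change of C2 was 1.11.

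In the lectin route, Mbl1, Mbl2 and Masp2 were at or near 0 reads in PBS. Mbl1 and Mbl2 encode the mannose-binding lectins. Mbl1 had 0 reads in both PBS libraries, 87 in AKK 1 and 9 in AKK 2, which is at least 14.2-fold higher against a floor of 3 reads per library. Mbl2 had 0 reads in either PBS library against 222 and 19 in AKK, at least 35.6-fold higher. Masp2, the lectin-bound protease that cleaves C4 and C2, had 3 and 2 PBS reads against 228 and 24 AKK reads, 45.2 times higher in CPM. The opposite strand at Masp2 held 813 to 1237 reads a library, and Masp2 did not pass the filter when counted without regard to strand. AKK 1 carried most of the reads of all 3 genes. Both AKK libraries were above both PBS libraries for all 3, as for 26.7% of all genes tested. Mbl2 and Masp2 were kept through their AKK reads alone and so had to lie higher in AKK, and Mbl1 was below the filter. DESeq2 called Mbl1 (adjusted p = 0.00392) and Masp2 (adjusted p = 4.00e-04) higher, and gave Mbl2 an adjusted p of 0.0554.

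Masp1, the protease partner of Masp2, was measurable in every library. It read 0.787 and 1.32 CPM in PBS and 0.548 and 1.25 CPM in AKK. The groups overlapped, and AKK 1 was the lowest library (log2 fold change -0.23 ± 0.61, edgeR adjusted p = 0.873).

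C3 had the largest gain in CPM of the members whose groups did not overlap. Its PBS libraries read 15.4 and 7.51 CPM and its AKK libraries 126 and 78.0 CPM, 8.90 times higher on the group means. The log2 fold change was 3.15 ± 0.43, with an adjusted p of 0.182 in edgeR and 2.22e-10 in DESeq2. C3 was already measurable in PBS, where the hepatocyte gene Alb was near 0: the ratio of C3 to Alb was 51.4 and 7.60 in PBS and 0.807 and 3.08 in AKK.

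Of the alternative route's own members, Cfb and Cfp overlapped between the groups and Cfd had reads in 1 library. Cfb, encoding factor B, had 6 and 47 PBS reads against 18 and 78 AKK reads. PBS 2 and AKK 2 were the higher libraries and the groups overlapped (log2 fold change 0.60 ± 1.10, edgeR adjusted p = 0.811). In the GENCODE M21 annotation, the gene model Gm20547 covers 79.5% of Cfb's exon bases and 42.8% of those of C2 on the same strand. It had 0 reads in every library, and reads in shared exons would go uncounted as ambiguous, so both levels are uncertain. PBS 2 had the highest sum of interferon-induced genes (370 and 1783 CPM in PBS, 597 and 528 in AKK). Cfb was highest in AKK 2 (1.34 CPM) and C2 in AKK 1 (2.72 CPM). The part of the interferon-induced genes in Cfb and C2 was not tested.

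Cfp encodes properdin, which stabilises the alternative enzyme. It read 20.6, 14.5, 29.8 and 17.0 CPM and overlapped between the groups (log2 fold change 0.42 ± 0.34, edgeR adjusted p = 0.576). Cfd, encoding factor D, a protease known from fat cells, had 35 reads in PBS 1 and 0 in the other libraries. PBS 1 was also the library with high skeletal muscle markers, summing to 244 CPM against 2.48 to 6.14 CPM in the others. It had 13 reads of the fat cell gene Adipoq, against 0, 7 and 2. The list of 7 fat cell markers was highest in PBS 2, summing to 17.2 and 29.6 CPM in PBS and 22.8 and 14.6 CPM in AKK. The part of these markers in the Cfd reads was not tested.

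The terminal components, which build the membrane pore, were higher in both AKK libraries for all 6 genes, of which C8b was below the filter. Of all genes tested, 26.7% had both AKK libraries above both PBS libraries. Of the 5 terminal genes kept, 3 (C8a, C8g and C9) were kept through their AKK reads alone and so had to lie higher in AKK. Hc, encoding C5, read 0.356 and 0.484 CPM in PBS and 9.57 and 2.40 CPM in AKK, 14.3 times higher (log2 fold change 3.83 ± 0.78, adjusted p = 0.186 in edgeR and 9.20e-06 in DESeq2). C6, the next component, differed least, at 0.900 and 1.39 CPM in PBS and 4.55 and 2.06 CPM in AKK (2.89 times, DESeq2 adjusted p = 0.123).

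C8 is built from 3 chains. C8a had 0 reads in either PBS library against 668 and 85 in AKK, at least 111-fold higher, and C8b 0 and 0 against 72 and 7, at least 11.7-fold higher. C8g read 0.112 and 0.105 CPM in PBS and 1.56 and 0.325 CPM in AKK, 8.65 times higher (log2 fold change 3.08 ± 0.92). Counted without regard to strand, the log2 fold change of C8g was 0.55. The opposite strand held 193 and 126 PBS reads against 203 and 224 AKK reads, more than its own strand in every library. DESeq2 called C8a (adjusted p = 0.00492) and C8b (adjusted p = 0.00875), and C8g missed its threshold (adjusted p = 0.0761). C9, which polymerises into the pore, had 5 and 2 PBS reads against 645 and 58 AKK reads, 91.4 times higher (DESeq2 adjusted p = 3.90e-07). AKK 1 held the larger share of reads for every terminal gene.

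Among the soluble regulators, Cfi encodes factor I, the protease that inactivates C3b and C4b. It had 5 and 5 PBS reads against 350 and 297 AKK reads, 56.7 times higher, with little difference inside either group. Its log2 fold change of 5.80 ± 0.51 had the smallest edgeR adjusted p of any member, 0.111 (2.47e-04 to 0.615 over the alternatives other than DESeq2), and 2.90e-17 in DESeq2. Counted without regard to strand, the log2 fold change was 4.38, the opposite strand holding 14 and 5 PBS reads against 18 and 12 AKK reads.

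C4bp encodes a cofactor of factor I, and Vtn vitronectin, which blocks insertion of the pore. C4bp read 0.581 and 1.03 CPM in PBS and 8.46 and 2.74 CPM in AKK, 6.95 times higher (DESeq2 adjusted p = 0.00106). Vtn read 0.656 and 0.147 CPM in PBS and 35.0 and 6.83 CPM in AKK, 52.1 times higher (DESeq2 adjusted p = 0.00178). In edgeR their adjusted p values were 0.211 and 0.182.

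Clu, encoding the chaperone and pore inhibitor clusterin, was by far the most abundant member. It read 3769, 4411, 1694 and 5637 CPM in PBS 1, PBS 2, AKK 1 and AKK 2. The AKK libraries held both its lowest and its highest value (log2 fold change -0.16 ± 0.59, edgeR adjusted p = 0.913). Per kb of exon it ranked first in every library, at 493 to 1640 CPM per kb.

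The membrane regulators did not separate the groups, except for Cd59a. Cr1l, the rodent regulator known as Crry, read 38.5, 41.6, 38.8 and 44.4 CPM, with a log2 fold change of 0.05 ± 0.19 (edgeR adjusted p = 0.903). Cd55, which dissociates the C3-cleaving enzymes, read 1.35, 0.778, 1.01 and 0.343 CPM and overlapped. Cd59a, which stops pore assembly, read 0.806 and 0.652 CPM in PBS and 2.97 and 1.01 CPM in AKK, 2.73 times higher, with an adjusted p of 0.355 in edgeR and 0.286 in DESeq2. Cd55 and Cd59a have paralogs, Cd55b with 0 reads in every library and Cd59b with 4, 3, 6 and 0 reads. Reads that map to both a gene and its paralog would go uncounted.

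Of the receptor genes, C3ar1, the receptor of the C3a fragment, read 17.7 and 16.1 CPM in PBS and 8.56 and 12.3 CPM in AKK (log2 fold change -0.70 ± 0.28, edgeR adjusted p = 0.324). Relative to the summed macrophage markers it overlapped, at 0.0483 and 0.0591 in PBS and 0.0424 and 0.0564 in AKK. C5ar1, the receptor of C5a, read 7.25, 4.16, 5.22 and 5.22 CPM and overlapped.

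Cd93, a surface protein of endothelial and myeloid cells once described as a C1q receptor, was the one member that DESeq2 called lower. It read 29.8 and 21.7 CPM in PBS and 14.4 and 12.4 CPM in AKK, 0.521 times the PBS level (adjusted p = 0.0495 in DESeq2 and 0.230 in edgeR). All 10 endothelial markers were below both PBS libraries in both AKK libraries, against 24.7% of all genes tested. They summed to 111 and 78.9 CPM in PBS and 35.3 and 36.9 CPM in AKK. Pecam1 read 28.6, 19.9, 10.3 and 10.6 CPM. Cd93 relative to that sum was higher in AKK, at 0.409 and 0.337 against 0.267 and 0.275. Of 6 further markers, of liver sinusoid endothelium, 2 were below both PBS libraries in both AKK libraries and 2, Stab2 and Clec4g, above. Stab2 was kept through its AKK reads alone, and Clec4g was below the filter. The markers' part in the Cd93 difference was not tested.

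Hepatocyte markers lay higher with the liver-made members. The median marker read 0.131 and 0.147 CPM in PBS and 28.5 and 9.16 CPM in AKK, and Serpina1c and Cyp3a11 were at 0 in PBS 1. Alb, encoding albumin, read 0.300 and 0.988 CPM in PBS and 156 and 25.4 CPM in AKK, and Apoa1 0.187 and 0.694, then 103 and 14.95 CPM. Apob and Hnf4a, named after their values were seen, overlapped: Apob read 241, 584, 164 and 468 CPM and Hnf4a 74.9, 168, 48.7 and 119 CPM. The summed list, of which Apob is the largest gene in PBS, was at 321 and 764 CPM in PBS and 949 and 810 CPM in AKK. Of 7 Kupffer cell markers, the resident liver macrophage genes, 5 were also above both PBS libraries, against 26.7% of all genes tested. Of those 5, 4 were kept through their AKK reads alone and so had to lie higher in AKK. The list summed to 14.2 and 16.8 CPM in PBS and 27.6 and 22.7 CPM in AKK. Slc40a1, most of that sum outside AKK 1, read 12.5, 16.2, 8.71 and 19.7 CPM and overlapped between the groups, as did Folr2. Clec4f, Cd5l, Timd4 and Marco were at 0 in PBS 2. The markers' part in the complement differences was not tested.

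The AKK libraries differed from each other in the same genes. The ratio of AKK 1 to AKK 2 had a median of 1.02 over all genes tested, 5.12 over the 13 chiefly liver members and 5.15 over the 19 hepatocyte markers. It was 6.15 for Alb. Among the 12 chiefly liver members above both PBS libraries it ran from 1.22 (Cfi) to 12.1 (Mbl2), with C4bp at 3.09, Hc at 3.99, Vtn at 5.12, C8a at 8.12 and C9 at 11.5. Cfi was the one of the 12 with a ratio under 2, as were Fgb (1.48) and Fgg (1.66) among the 17 hepatocyte markers above both PBS libraries. Fgb, a fibrinogen chain, was the 1 gene of the series called by edgeR (adjusted p = 0.0160). With 6 and 9 reads in PBS, Fgb was kept through its AKK reads alone and so had to lie higher in AKK. C3 and C4b, made by the liver and other cells, had ratios of 1.61 and 1.87.

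**Figure D3:**
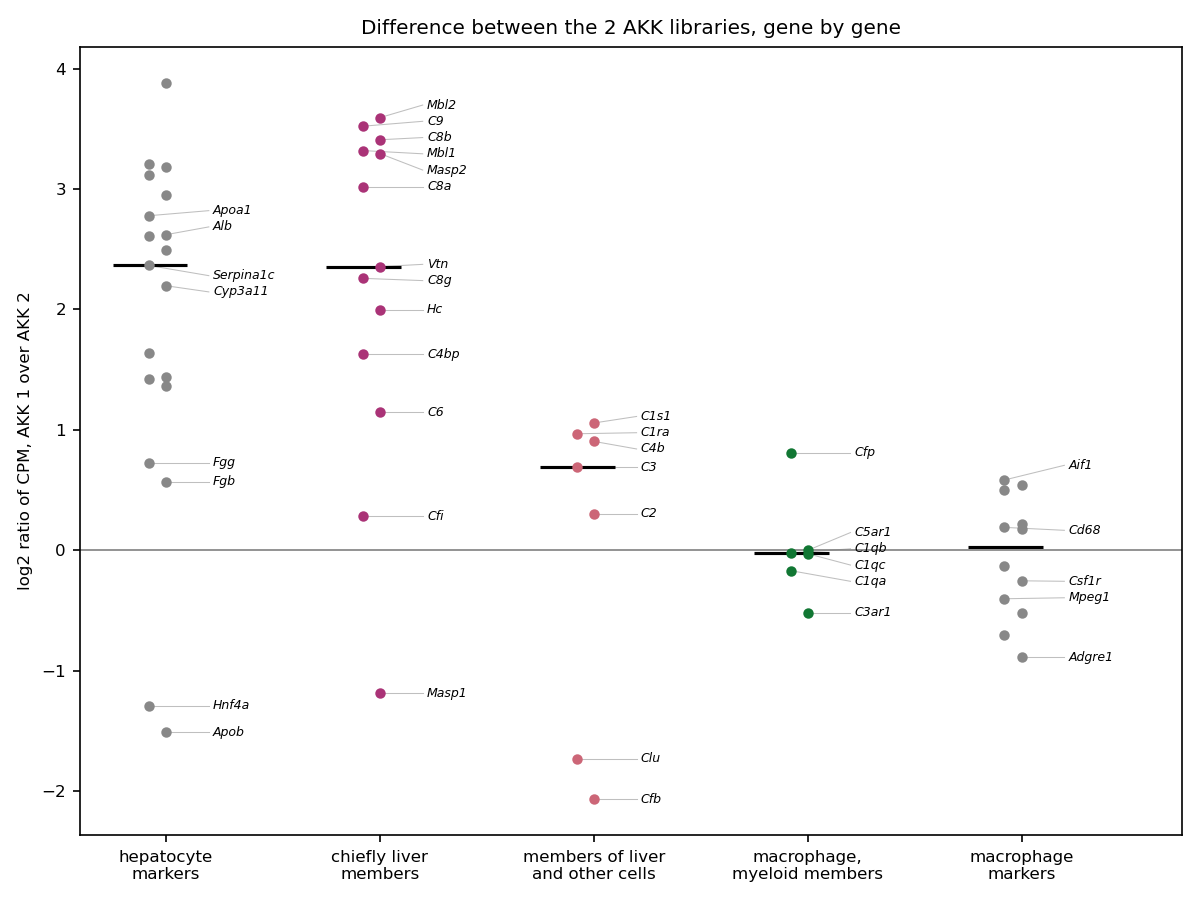
Log2 ratio of CPM in AKK 1 over AKK 2 for each gene of 5 sets, with bars at the medians and, among the markers, names for the genes described in the text. The chiefly liver members and the hepatocyte markers have median ratios of 5.12 and 5.15 before taking log2, and Cfi is the lowest of the chiefly liver members above both PBS libraries.

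Per length, the C1q chains were the largest share of the complement genes other than Clu in every library. They held 82.2% and 83.2% of the summed CPM per kb in PBS and 51.7% and 69.7% in AKK. C3 held 1.42% and 0.854% in PBS and 11.2% and 8.74% in AKK, and the chiefly liver members 0.459% and 0.570%, then 17.9% and 5.03%. The sum itself overlapped between the groups, at 211 and 171 CPM per kb in PBS and 219 and 174 in AKK. C1qa and C1qb ranked next after Clu in every library.

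**Figure D4:**
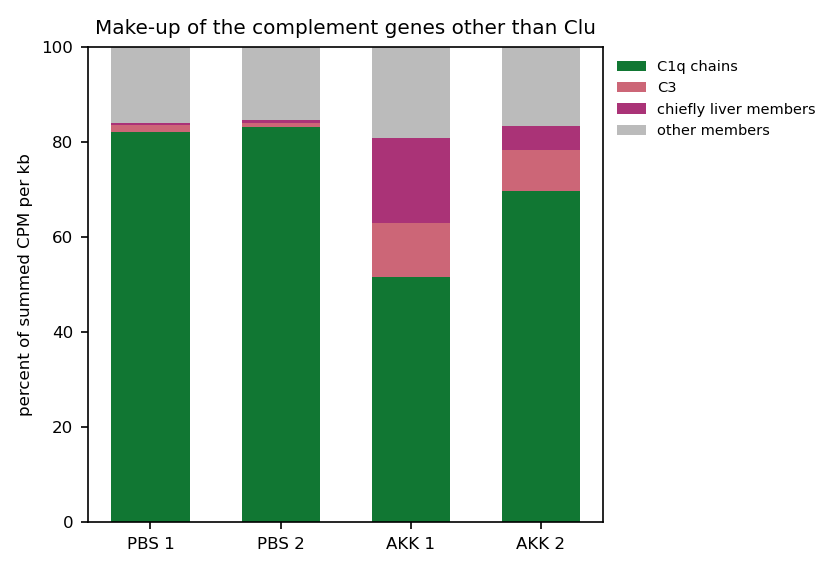
Percent of the summed CPM per kb of the 30 members other than Clu held by the C1q chains, C3, the chiefly liver members and the rest, in each library. The C1q share is 82.2% and 83.2% in PBS 1 and PBS 2 and 51.7% and 69.7% in AKK 1 and AKK 2.

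The rest of the pathway was read from 35 further complement genes, of which 34 matched and 22 were kept. Of these 22, 6 were kept through their AKK reads alone, among them Crp, Apcs, Cfhr2 and Vsig4. edgeR called 0 of the 22. At an unadjusted p under 0.05, 9 were higher and 0 lower, where 6.7% and 8.62% of all genes were. DESeq2 called 9 of the 26 with an adjusted p higher and 0 lower, against 2.03% and 2.78% of all genes with one. The median log2 fold change was 0.76 (0.56 without Vsig4 and Cd5l, which are also Kupffer cell markers). In edgeR, 3 were called higher without PBS 1, against 0.8% of all genes, and 3 without PBS 2, against 0.527%. The 4 higher genes of smallest p were the pentraxin genes Crp (1 and 2 reads in PBS, 111 and 48 in AKK) and Apcs (0 and 1, then 170 and 55), the factor H-related gene Cfhr2 (0 and 1, then 150 and 40) and Vsig4, a macrophage receptor of C3b (1 and 1, then 49 and 25). Counted without regard to strand, the log2 fold change of Vsig4 was 3.68 in place of 4.87. The 4 lower genes of smallest p were Fcna, a ficolin of macrophages (3.37, 1.41, 0.708 and 1.03 CPM), Colec12 (10.5, 3.85, 2.74 and 3.84 CPM), Itgb2 (24.7, 21.9, 15.4 and 18.8 CPM) and Itgax (29.0, 30.4, 17.9 and 28.1 CPM), the last 2 encoding chains of complement receptor integrins. Their edgeR adjusted p values ran from 0.326 to 0.523.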

How the data were processed

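Per the labels, total RNA of liver tumours was sequenced as paired 151 bp reads. The authors deposited whole read counts for each gene, laid out as STAR writes them. STAR 2.5.2 and RSEM 1.2.31 are listed in the submitters' processing notes, and build and annotation were not given in the sources used here. Such counts take reads that map to 1 place and overlap 1 gene, so near-identical and overlapping genes lose reads. The own-strand column, with 95.4 to 96.2% of the reads assigned by strand, was used. Summary rows that name no gene (8.97 to 12.3% unmapped, 4.20 to 6.66% multimapping, 11.4 to 13.5% outside genes, 1.18 to 1.37% ambiguous) were left out. Symbols were matched for 48058 of 48526 identifiers by identifier without version.

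AKK was compared with PBS by edgeR 4.0.16's quasi-likelihood test (legacy form, two-sided) in R 4.3.3, with TMM scaling, filterByExpr (10 reads, here 0.185 CPM), group as the only term, a prior count of 0.125 and Benjamini-Hochberg adjustment at 0.05 over 17479 genes. DESeq2 1.42.0, limma 3.58.1 (voom), other scalings, filters, strand counting, the replicate number as a block and leaving out each library were alternatives. Genes per length used exon lengths of GENCODE M21, and promoters the RefSeq table of GRCm38.p6. All members were named, as were the 4 other complement genes of smallest edgeR p in each direction and up to 3 genes of each marker list, in list order. Genes outside that rule (Apob, Hnf4a, Mpeg1, Aif1, Fgg, Serpina1c, Cyp3a11, Timd4, Marco, Slc40a1, Folr2) were named after their values were seen. The members and lists were chosen with earlier results of these data known.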

Additional observations from a re-analysis of the deposited data

How the results depend on the processing

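Complement members called numbered 0 in edgeR, 12 in DESeq2, 12 with no filter on low counts and 7 with the replicate block, and 0 to 7 leaving out each library. The 7 with the block were C3, C4b, C8a, C9, Cfi, Mbl2 and Vtn. The groups' within-group differences by replicate number did not correlate (r = -0.02, across 17479 genes that are not independent replicates). With a single such difference in each group, this cannot show whether the replicate numbers pair the samples. Other complement genes called numbered 0 in edgeR, 9 in DESeq2, 6 with no filter, 4 with the block, and 0 to 3 leaving out each library. Calls over all genes numbered 1 in edgeR, 908 in DESeq2, 631 with no filter, 209 with the block, 279 without PBS 1 and 324 without PBS 2. The median log2 fold change of chiefly liver members was 3.84 with a filter of 1 CPM in 2 libraries (7 members kept), 4.004 unstranded (10 members kept) and 3.001 to 6.28 leaving out each library. That of members of liver and other cells was 0.43 to 2.09, that of macrophage and myeloid members -0.59 to -0.25 and that of membrane regulators -0.05 to 0.15.

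Of 144 single-gene values with a library left out, 10 reversed, in 7 genes. Their log2 fold changes with 1 library left out ran from -0.36 (without AKK 1) to 0.59 for C1ra, -0.043 (without AKK 1) to 0.76 for Cfp, -0.95 to 0.25 (without AKK 1) for Masp1 and -1.28 to 0.47 (without AKK 1) for Clu. They ran from -0.78 (without AKK 2) to 2.83 for Cfb, -0.50 to 0.32 (without PBS 1) for C5ar1 and -0.052 (without AKK 2) to 0.15 for Cr1l. Cfb and Cr1l also reversed without PBS 1, and Masp1 without PBS 2. None of the 313 values under the other settings reversed, and 38 of them passed the threshold. Causes were not tested, other than that fewer genes or libraries entered some settings. A library left out leaves a lone sample that is assumed to vary like the other group. Members with 0 to 6 PBS reads are limited by depth, and their folds rest on few reads.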
